A study of Mus musculus with 12 samples.

Results

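Transcript levels of the 5 mouse FGF receptor genes, Fgfr1, Fgfr2, Fgfr3, Fgfr4 and Fgfrl1, were followed across 12 newborn skull samples. The members were the rows of the deposited count table whose gene name equals 1 of these symbols, 5 of 23358 rows, and all 5 were among the 16190 genes that passed the filter on low counts. RNA came from the frontal and nasal bones together with the frontonasal and coronal sutures at postnatal day 3. The 4 groups of 3 samples were C57BL/6 wild type, C57BL/6 FGFR2 C342Y/+, BALB/c wild type and BALB/c FGFR2 C342Y/+. The FGFR2 C342Y/+ mice, called mutants here, carry 1 copy of Fgfr2 in which a tyrosine codon replaces a cysteine codon. They model Crouzon syndrome, a disorder of early suture closure in the skull. The labels do not say whether each sample is a separate animal, so the p-values measure the spread between these samples, which may be technical. The run identifiers put all C57BL/6 samples on 1 flow cell and all BALB/c samples on another, so strain and flow cell cannot be told apart.

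FGF receptors are cell surface receptors for fibroblast growth factors. Ligand and heparan sulfate bring receptors together in pairs, which turns on the kinase inside the cell and, through adaptors, the RAS-ERK relay. Alternative splicing of the third immunoglobulin-like domain of Fgfr1, Fgfr2 and Fgfr3 gives an epithelial form (IIIb) and a mesenchymal form (IIIc) with different ligand preferences. In the skull, FGFR1 and FGFR2 act in the osteoprogenitors and osteoblasts of the sutures, FGFR3 is best known as a brake on cartilage growth, and FGFRL1 lacks the kinase and has been described as a decoy or modulator. The cysteine changed in the mutants normally closes a disulfide bridge within the third immunoglobulin-like domain, and its loss is known to leave a free partner that links receptors into active pairs.

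The stretch around the cysteine codon that lines up with the mutated one is shown for the alternative exon of Fgfr2 and for 3 other members, because it shows how alike the receptors are there. Each stretch holds 15 codons on either side and is printed 5′ to 3′ on the coding strand, from GENCODE transcripts of GRCm38, with the aligned codon in capitals.
Fgfr2 (alternative exon): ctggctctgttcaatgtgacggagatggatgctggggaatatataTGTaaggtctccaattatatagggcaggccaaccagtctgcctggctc
Fgfr3: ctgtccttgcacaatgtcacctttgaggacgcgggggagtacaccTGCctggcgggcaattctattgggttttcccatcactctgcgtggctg
Fgfr4: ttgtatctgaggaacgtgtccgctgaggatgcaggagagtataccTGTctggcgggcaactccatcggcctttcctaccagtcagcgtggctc
Fgfrl1: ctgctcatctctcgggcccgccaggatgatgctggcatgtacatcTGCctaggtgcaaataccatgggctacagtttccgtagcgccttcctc
These are wild type reference sequences, and no base was read from any sample. The alternative exon of Fgfr2, chr7:130199780-130199872 on the minus strand, has its own codon for cysteine at position 340, and 17 of its 31 residues match those of the exon that is mutated. Of 17 annotated Fgfr2 coding transcripts that begin with a start codon, 5 code through the mutated codon, and the alternative exon does not hold it. Cysteine stood at the aligned position in Fgfr3 (codon 333, chr5:33732156-33732248), Fgfr4 (codon 330, chr13:55160282-55160374) and Fgfrl1 (codon 334, chr5:108705467-108705559), all on the plus strand. Of the 31 residues, 26 matched FGFR2 in Fgfr3, 25 in Fgfr4 and 15 in Fgfrl1.

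Over the whole translated protein, FGFR2 shared 72.5% of aligned residues with FGFR1, 69.4% with FGFR3, 59.9% with FGFR4 and 32.7% with FGFRL1. Despite this likeness, few exact 50-base words of the members' transcripts occur in another gene: 1.49% for Fgfr1, 2.47% for Fgfr2, 11.6% for Fgfr3 and 0 for Fgfr4 and Fgfrl1. None of the shared words joined 2 members. The Fgfr2 words were shared with Ctbp2 and most of the Fgfr3 words with G630022F23Rik, so Fgfr3 is the member whose reads could most be split with another gene. In the count table, Fgfr1 spans chr8:25518772-25575714, Fgfr2 chr7:130162451-130266808, Fgfr3 chr5:33721724-33737068, Fgfr4 chr13:55152818-55168759 and Fgfrl1 chr5:108694229-108706950 (mm10). Counts were made per gene, so they pool the mutant and the wild type allele of Fgfr2 and both forms of that domain, and an Fgfr2 level does not check the genotype.

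Gene counts per sample summed to 32319568 to 36869392 in C57BL/6 wild type, 40633058 to 45399520 in C57BL/6 mutants, 27181658 to 34304158 in BALB/c wild type and 32349496 to 46521546 in BALB/c mutants. Levels are given as CPM, counts scaled to a common library size with edgeR's TMM factors. The markers of bone were plentiful in every sample, with 10 osteoblast markers summing to between 113743 and 262792 CPM. Several libraries stood apart in their cell type markers. C57BL/6 wild type replicate 1 had the lowest osteoblast sum (113743 CPM, against 185195 or more in each other sample) and the highest cartilage sum (9189 CPM). BALB/c mutant replicate 16 had 400 CPM of skeletal muscle markers and 560 CPM of Schwann and glia markers, and BALB/c mutant replicate 17 had 6520 CPM of cartilage markers. Epithelial markers summed to 135 to 320 CPM in C57BL/6 wild type, 3.98 to 75.6 CPM in C57BL/6 mutants and 3.83 to 7.07 CPM in the BALB/c samples, where Krt14 was at 0.

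Ranked by level per kilobase of transcript, Fgfr1 was the most abundant receptor gene in this mix of newborn skull bones and sutures, followed by Fgfr2, Fgfr3, Fgfrl1 and Fgfr4. Over the 12 samples Fgfr1 averaged 98.4 CPM per kilobase ± 14.3 (SD, n = 12), Fgfr2 55.7 ± 8.87, Fgfr3 39.4 ± 4.96, Fgfrl1 12.8 ± 2.22 and Fgfr4 0.659 ± 0.360. This order held in 11 of the 12 samples. The exception was C57BL/6 wild type replicate 1, in which Fgfr3 (41.9 CPM per kilobase) lay above Fgfr2 (39.6). Each neighbour in the order was compared within samples by an exact two-sided paired permutation test, adjusted over the 4 pairs. The pairs were taken from the mean levels in these same 12 samples, so the test does not check an order set beforehand. The log2 ratio was 0.82 ± 0.0792 (SD, n = 12) for Fgfr1 over Fgfr2, 0.49 ± 0.293 for Fgfr2 over Fgfr3, 1.63 ± 0.221 for Fgfr3 over Fgfrl1 and 4.48 ± 0.685 for Fgfrl1 over Fgfr4. The exact adjusted p was 0.000651 for each pair except Fgfr2 and Fgfr3, for which it was 0.00146, and the smallest unadjusted p the test can give is 0.000488. In C57BL/6 wild type alone Fgfr2 and Fgfr3 did not separate, with a log2 ratio of 0.07 ± 0.185 (SD, n = 3) and Fgfr2 higher in 2 of 3 samples.

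**Figure D1:**
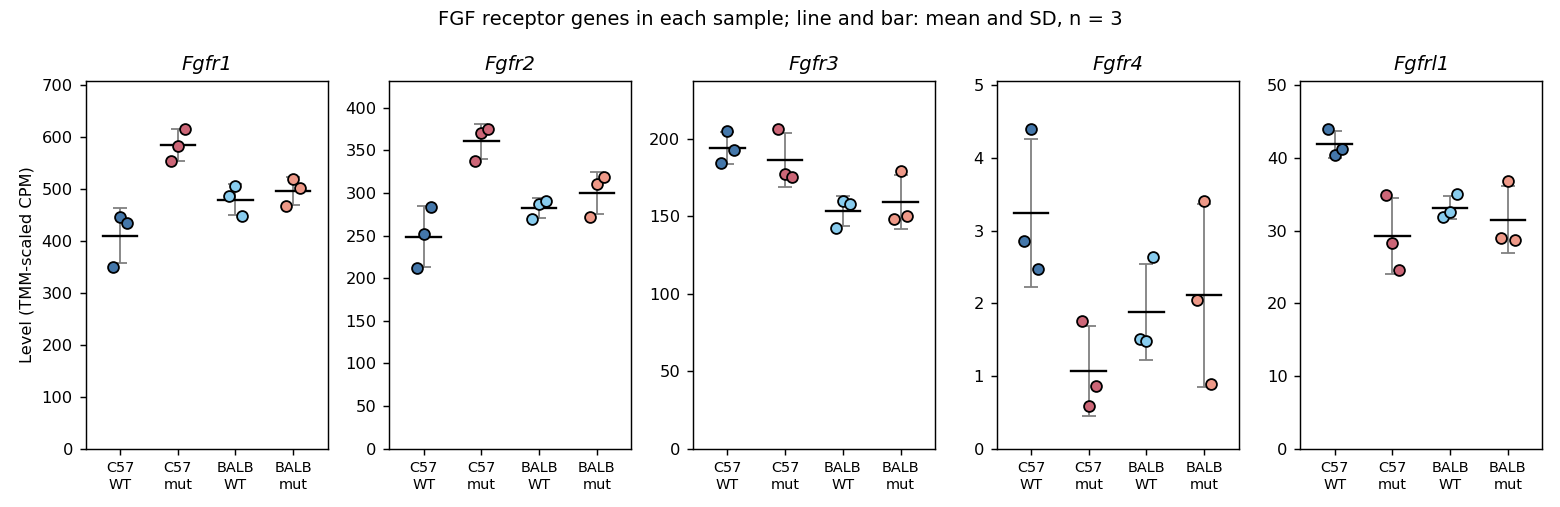
Level of each FGF receptor gene (vertical axes, TMM-scaled CPM, each starting at 0) in the 4 groups (WT, wild type; mut, FGFR2 C342Y/+), 1 point per sample, with the group mean (line) and SD (bar, n = 3). The C57BL/6 mutants lie above the C57BL/6 wild type samples for Fgfr1 and Fgfr2 and below them for Fgfr4 and Fgfrl1, while the BALB/c groups overlap for every gene.

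The main comparison asks how the Crouzon mutation changed the receptor genes on each strain background. On C57BL/6, Fgfr1 and Fgfr2 were higher in mutants by 1.42-fold and 1.45-fold, Fgfr4 and Fgfrl1 were lower, and Fgfr3 did not pass the test. Thus 4 of 5 members were called at an edgeR adjusted p under 0.05, 2 higher and 2 lower, against 23.9% of all 16190 genes tested. Bulk counts cannot tell fewer cells of a type from less RNA per cell.

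Fgfr2, the mutated gene, stood at 212, 252 and 283 CPM in the C57BL/6 wild type samples and at 337, 370 and 375 CPM in the C57BL/6 mutants. Every mutant was above every wild type sample. The means were 249 CPM ± 35.8 (SD, n = 3) and 361 CPM ± 20.6 (SD, n = 3), a log2 fold change of 0.54 (SE 0.0999, 95% interval 0.32 to 0.75, adjusted p = 0.00405).

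Fgfr1, the most abundant member here and a receptor of osteoprogenitors, also rose. Its level was 350, 446 and 435 CPM in C57BL/6 wild type and 553, 584 and 616 CPM in the C57BL/6 mutants, again without overlap. The log2 fold change was 0.51 (SE 0.0936, 95% interval 0.31 to 0.71, adjusted p = 0.00370). Both genes were lowest in wild type replicate 1, and without it the log2 fold changes were 0.43 for Fgfr1 (adjusted p = 0.00551) and 0.45 for Fgfr2 (adjusted p = 0.00849). Fgfr1 and Fgfr2 kept their calls under each alternative computed, with log2 fold changes of 0.32 and 0.35 when libraries were scaled by total gene counts, a scaling that moved the median of all genes to -0.20.

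Fgfrl1, the receptor without a kinase, moved the other way. It measured 44.0, 40.4 and 41.2 CPM in C57BL/6 wild type and 34.9, 28.2 and 24.6 CPM in the mutants. All mutants were below all wild type samples, and the log2 fold change was -0.52 (SE 0.122, 95% interval -0.78 to -0.25, adjusted p = 0.0119). The call was lost without C57BL/6 mutant replicate 6 (-0.41, adjusted p = 0.0507) and when only the C57BL/6 groups entered the fit (adjusted p = 0.0539).

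Fgfr4, a receptor better known from liver and muscle, was scarce, with 24 to 158 counts per sample. The C57BL/6 wild type samples had 2.86, 4.40 and 2.47 CPM and the C57BL/6 mutants 1.76, 0.582 and 0.862 CPM. The ranges did not overlap, and the log2 fold change was -1.59 (SE 0.507, 95% interval -2.70 to -0.49, adjusted p = 0.0407). The call was lost with only the C57BL/6 groups in the fit (adjusted p = 0.0719), with a covariate for Y-linked transcripts (0.111), and without C57BL/6 wild type replicate 1 (0.0743) or 2 (0.113), replicate 5 (0.126) or 6 (0.126) of the C57BL/6 mutants, 13 (0.0526) or 14 (0.0517) of the BALB/c wild type samples, or 16 (0.0509) of the BALB/c mutants.

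Fgfr3, the receptor that restrains cartilage growth, did not pass the test. It was at 185, 205 and 193 CPM in C57BL/6 wild type and 206, 177 and 176 CPM in the mutants, with overlapping ranges. Its log2 fold change was -0.06 (95% interval -0.26 to 0.14, adjusted p = 0.672). With total count scaling it was -0.25 (edgeR adjusted p = 0.0748), where the median of all genes was -0.20.

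**Figure D2:**
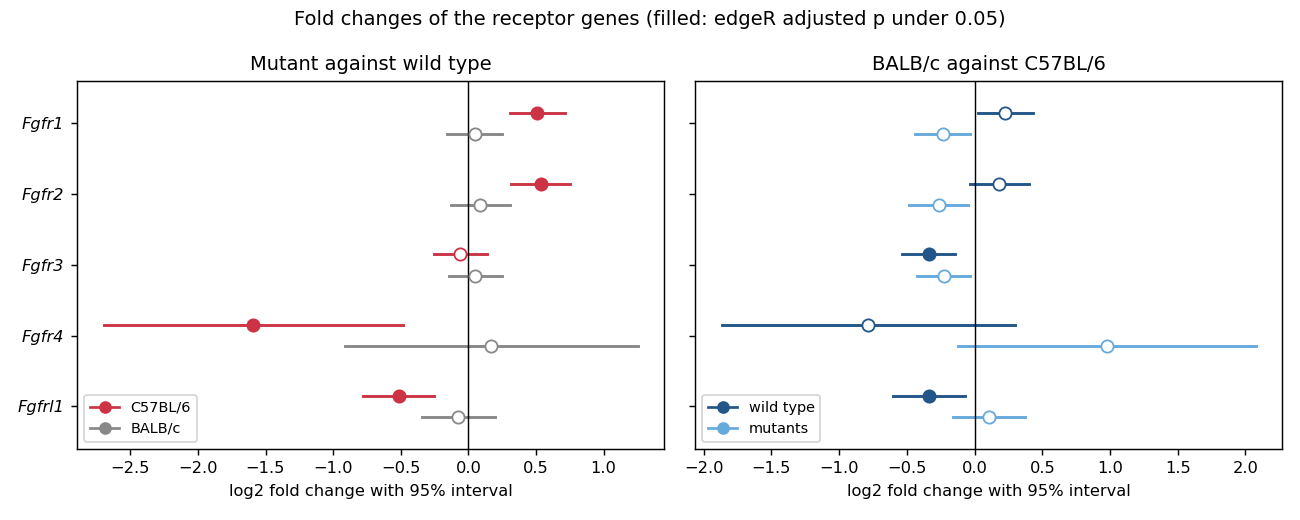
Log2 fold changes (horizontal axes) of the 5 genes with 95% intervals (lines), for mutant against wild type in each strain (left) and BALB/c against C57BL/6 in each genotype (right), with filled points called at an edgeR adjusted p under 0.05. In C57BL/6 the intervals of Fgfr1, Fgfr2, Fgfr4 and Fgfrl1 lie clear of 0, and in BALB/c all 5 intervals include it.

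On BALB/c none of the 5 members was called by edgeR, DESeq2 or limma-voom, and 0 of 5 had an unadjusted edgeR p under 0.05. The edgeR background in this comparison was 0.136% of genes called, 22 of 16190. DESeq2 called 323 of 13911 genes and limma-voom 44 of 16190. Fgfr2 measured 269, 287 and 290 CPM in BALB/c wild type and 271, 310 and 318 CPM in BALB/c mutants, with a log2 fold change of 0.09 (95% interval -0.13 to 0.31, adjusted p = 0.800). Fgfr1 measured 487, 505 and 447 CPM in wild type and 467, 520 and 501 CPM in mutants (0.05, interval -0.16 to 0.25, adjusted p = 0.905). The upper ends of these 2 intervals lie below the 0.54 and 0.51 estimated on C57BL/6. Fgfr3 ran from 142 to 160 CPM in wild type and from 148 to 179 CPM in mutants, and Fgfrl1 from 31.9 to 35.0 CPM and from 28.7 to 36.8 CPM. Fgfr4 had 1.5, 1.48 and 2.64 CPM in wild type and 2.04, 3.40 and 0.886 CPM in mutants, and its interval of -0.91 to 1.25 spans changes in both directions. The BALB/c mutant with the most Fgfr1, Fgfr3, Fgfr4 and Fgfrl1 was replicate 17, the library with 6520 CPM of cartilage markers. Fgfr2 was highest in replicate 18.

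The difference between the strains' genotype effects was tested directly as an interaction, BALB/c effect minus C57BL/6 effect. Fgfr1 was the 1 member of 5 called, against 10% of all genes, with a difference of -0.46 on the log2 scale (SE 0.132, 95% interval -0.75 to -0.17, adjusted p = 0.0473). The call was lost with RLE size factors (0.0523), without a filter (0.0664), with the Y-linked covariate (0.0853) and with total count scaling (-0.24, 0.0945), which moved the median of all genes from 0.01 to 0.24. Fgfr2 gave nearly the same difference, -0.45 (SE 0.141, edgeR adjusted p = 0.0638), short of the threshold. DESeq2 called Fgfr2 (adjusted p = 0.0145), among 2707 of 15477 genes that it called. The values were 0.11 for Fgfr3 (adjusted p = 0.600), 1.76 for Fgfr4 (0.123) and 0.44 for Fgfrl1 (0.114). Fgfr1 lost its call without any 1 of C57BL/6 wild type replicate 1, C57BL/6 mutant replicates 5 and 6 and each of the BALB/c samples (adjusted p 0.0524 to 0.119), and without C57BL/6 mutant replicate 4 all but Fgfr3 were called.

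Averaged over both strains, Fgfr2 was higher in mutants with a log2 change of 0.31 (SE 0.0705, edgeR adjusted p = 0.0227), and Fgfr1 with one of 0.28 (SE 0.0660, 0.0273), 2 of 5 members against 7.99% of all genes. Fgfrl1 was at -0.29 (edgeR adjusted p = 0.0576, DESeq2 0.0169, limma-voom 0.0464), Fgfr4 at -0.71 (0.233) and Fgfr3 at -0.00 (0.989). With the Y-linked covariate Fgfr1 was not called (0.26, 0.0582) and Fgfr2 was at 0.0499. The average combines an effect seen in C57BL/6 with one not detected in BALB/c. Both calls were lost when any of these was left out: replicate 6 of the C57BL/6 mutants, 13 of the BALB/c wild type samples or 18 of the BALB/c mutants (adjusted p 0.0611 to 0.0737), and that of Fgfr1 also without replicate 5 of the C57BL/6 mutants (0.0513) or 15 of the BALB/c wild type samples (0.0678). Without BALB/c mutant replicate 17, Fgfr1 was at 0.0691 and Fgfr2 at 0.0571, while Fgfrl1 passed (-0.36, 0.0338), as it did without C57BL/6 mutant replicate 4 (-0.37, 0.00540).

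Strain comparisons carry the flow cell with them. Among wild type samples Fgfr3 and Fgfrl1 were lower in BALB/c, 2 of 5 members, against 48.5% of all genes called. Fgfr3 had a mean of 153 CPM ± 9.76 (SD, n = 3) in BALB/c and 194 CPM ± 10.5 in C57BL/6, without overlap, and a log2 difference of -0.34 (SE 0.0905, adjusted p = 0.00897). Fgfrl1 had 33.1 CPM ± 1.62 and 41.8 CPM ± 1.87 (-0.34, SE 0.122, adjusted p = 0.0385), and lost its call without any 1 of the 6 wild type samples (adjusted p 0.0583 to 0.104). Fgfr1 (0.23, adjusted p = 0.0645), Fgfr2 (0.18, 0.153) and Fgfr4 (-0.78, 0.211) were not called by edgeR, whereas DESeq2 (0.0427) and limma-voom (0.0499) called Fgfr1. In the same comparison 5 of 8 cartilage, 9 of 10 epithelial and 8 of 9 ciliated and olfactory mucosa markers were lower in BALB/c by edgeR. For these lists limma-voom called 6, 6 and 7 lower. The cartilage sum was 2102 to 2972 CPM in BALB/c against 7304 to 9189 CPM in C57BL/6. Higher in BALB/c by edgeR were 4 of 7 suture mesenchyme, 3 of 10 osteoblast, 3 of 5 erythroid, 2 of 6 endothelial and 2 of 6 osteoclast markers. Lower were 1 suture mesenchyme, 1 osteoblast, 1 of 8 skeletal muscle and 1 of 6 Schwann and glia markers. The part of these markers in the result was not tested. Fgfr1 passed the test without C57BL/6 wild type replicate 2 (adjusted p = 0.0386) and Fgfr2 without C57BL/6 wild type replicate 3 (0.0317). Without C57BL/6 wild type replicate 1 the log2 differences were 0.13 for Fgfr1 (0.202) and 0.08 for Fgfr2 (0.483).

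Among mutants 0 of 5 members differed between strains by edgeR, against 36.9% of all genes called, although 3 had an unadjusted p under 0.05. DESeq2 called 3 and limma-voom 1, beside 6344 of 16105 and 5896 of 16190 genes. Fgfr1 was at -0.24 (edgeR adjusted p = 0.0661), Fgfr2 at -0.27 (0.0543), Fgfr3 at -0.23 (0.0659), Fgfr4 at 0.98 (0.148) and Fgfrl1 at 0.11 (0.527). Alternatives other than leaving out a sample gave as little as -0.12 for Fgfr1, -0.15 for Fgfr2 and -0.12 for Fgfr3. Fgfr1 and Fgfr2 had no overlap here, with each BALB/c mutant below each C57BL/6 mutant. Leaving out C57BL/6 wild type replicate 1 brought Fgfr1, Fgfr2 and Fgfr3 under the threshold (adjusted p 0.0130, 0.0151 and 0.0447). That sample belongs to neither group but enters the shared fit, and which step of the fit moved these values was not tested. Fgfr2 also passed without C57BL/6 wild type replicate 3 (0.0340) or C57BL/6 mutant replicate 4 (0.0469), Fgfr3 without BALB/c mutant replicate 17 (0.0194), and Fgfr4 without C57BL/6 mutant replicate 4 (0.0362) or BALB/c mutant replicate 18 (0.0490).

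The authors' deposited table of group comparisons gave the same directions as the edgeR fit for all 5 members in the C57BL/6 genotype comparison. For that comparison, the authors' deposited table lists log2 fold changes of 0.491 for Fgfr1 (q = 4.55e-06), 0.515 for Fgfr2 (q = 3.08e-07), -0.071 for Fgfr3 (q = 0.849), -0.766 for Fgfr4 (q = 0.0425) and -0.429 for Fgfrl1 (q = 0.156). Fgfrl1 was thus called by edgeR and not in the authors' deposited table. For BALB/c the smallest q in the authors' deposited table was 0.857, for Fgfr2. The authors' deposited table also lists Fgfr1 (q = 0.0146) and Fgfr2 (q = 0.0413) as lower in C57BL/6 than in BALB/c among wild type samples, and Fgfr2 as higher in C57BL/6 among mutants (q = 0.0339). Fgfr3 (q = 0.294) and Fgfrl1 (q = 0.361), which edgeR called between the wild type groups, were not called in the authors' deposited table.

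The makeup of the receptor pool was then compared as each member's share of the summed level per kilobase. In C57BL/6 wild type, Fgfr1 held 43.2% ± 1.66 (SD, n = 3), Fgfr2 24.5% ± 1.71, Fgfr3 23.4% ± 1.47, Fgfrl1 8.39% ± 1.22 and Fgfr4 0.544% ± 0.155. In C57BL/6 mutants the shares were 49.0% ± 1.76 for Fgfr1, 28.4% ± 1.25 for Fgfr2, 17.8% ± 1.93 for Fgfr3, 4.64% ± 0.903 for Fgfrl1 and 0.143% ± 0.0848 for Fgfr4. The BALB/c wild type samples had 48.7% ± 2.29 Fgfr1, 26.9% ± 1.04 Fgfr2 and 17.7% ± 0.871 Fgfr3, and the BALB/c mutants had 48.6% ± 0.798, 27.5% ± 1.33 and 17.7% ± 1.04.

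**Figure D3:**
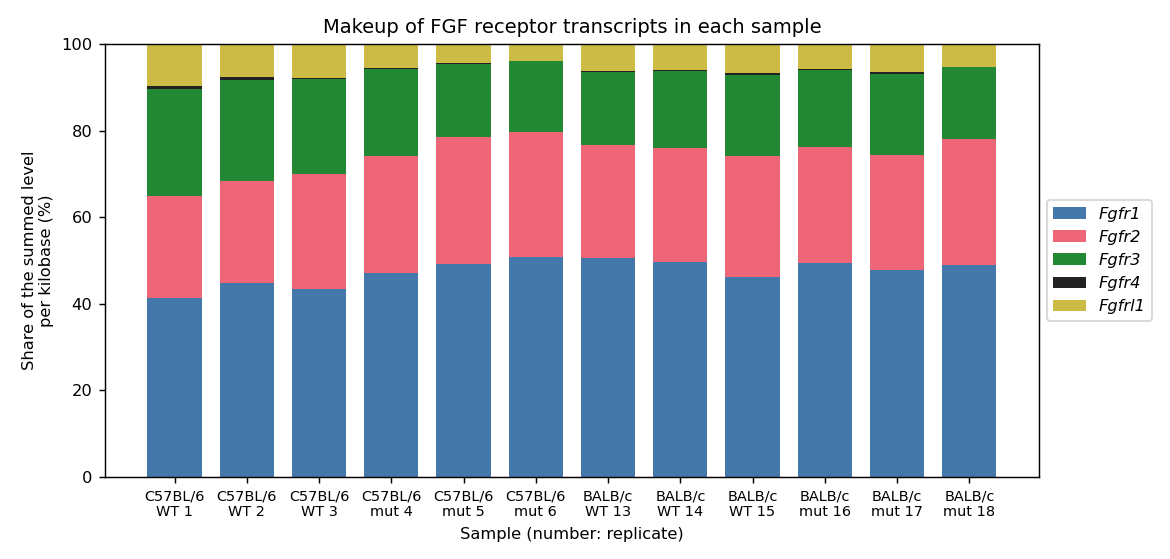
Share of each receptor gene in the summed level per kilobase (vertical axis, percent, stacked to 100) in each of the 12 samples (horizontal axis, group and replicate number; WT, wild type; mut, mutant). Fgfr3 and Fgfrl1 take a larger share in the 3 C57BL/6 wild type samples (Fgfr3 23.4% on average) than in the other groups (17.7% to 17.8%).

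The log2 ratio of Fgfr2 to Fgfr1 per kilobase was -0.82 ± 0.102 (SD, n = 3) in C57BL/6 wild type, -0.79 ± 0.0330 in C57BL/6 mutants, -0.86 ± 0.124 in BALB/c wild type and -0.82 ± 0.0644 in BALB/c mutants. Mutants differed from wild type by 0.03 over both strains (exact two-sided permutation within strains, p = 0.5). The ratio of Fgfr2 to Fgfr3 went from 0.07 ± 0.185 to 0.67 ± 0.215 in C57BL/6 without overlap, and was 0.60 ± 0.0391 and 0.64 ± 0.151 in BALB/c. Fgfr1 to Fgfr3 went from 0.89 ± 0.133 to 1.46 ± 0.203 in C57BL/6 and was 1.46 in both BALB/c groups. Fgfrl1 to Fgfr1 went from -2.37 ± 0.256 to -3.42 ± 0.330 in C57BL/6 and from -2.94 ± 0.154 to -3.07 ± 0.155 in BALB/c. Over both strains the exact permutation p was 0.045 for the Fgfr2 share, 0.045 for Fgfr2 to Fgfr3, 0.05 for Fgfr1 to Fgfr3 and 0.02 for Fgfrl1 to Fgfr1. After adjustment over these 5 measures each of the 4 was 0.0625 (exact permutation), which does not pass. Within a strain, 3 samples against 3 cannot give an exact p below 0.10, the value reached by these 4 measures in C57BL/6.

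Cell type markers also differed between these samples, and their counts stand beside 23.9% of all genes called in the C57BL/6 comparison. In C57BL/6, 8 of 10 osteoblast markers and 6 of 6 osteoclast markers were higher in mutants, 5 of 8 cartilage markers, 4 of 10 epithelial markers and 4 of 5 erythroid markers were lower, and no marker was called in BALB/c by edgeR or limma-voom. Over all genes edgeR called 22 and limma-voom 44 of 16190 in BALB/c, so 0 markers called is near that share. In BALB/c, DESeq2 called 3 erythroid, 1 skeletal muscle and 1 olfactory mucosa marker, beside 323 of 13911 genes. There 6 of 8 muscle, 4 of 5 erythroid and 3 of 6 Schwann and glia markers had an unadjusted edgeR p under 0.05. The share of all genes at that unadjusted p was not computed. Of the other lists in C57BL/6, 1 of 7 suture mesenchyme markers was higher and 2 lower, 1 of 9 ciliated and olfactory mucosa markers was higher and 3 lower, 1 of 8 skeletal muscle markers was lower and 0 of 6 Schwann and glia markers were called by edgeR (2 at an unadjusted p under 0.05), against 1 lower with DESeq2, limma-voom or total count scaling. The 2 of 6 endothelial markers that were higher were not called with total count scaling, under which 0 suture markers were higher and 4 lower. The osteoblast sum was 113743 to 196864 CPM in C57BL/6 wild type and 219475 to 262792 CPM in C57BL/6 mutants, with 188310 to 210848 CPM and 185195 to 199394 CPM in BALB/c wild type and mutants. The osteoclast sum was 3402 to 4155 CPM in C57BL/6 wild type, 7183 to 7994 CPM in C57BL/6 mutants and 4099 to 4869 CPM in the BALB/c samples. The sample lowest in osteoblast markers was also lowest in Fgfr1 and Fgfr2, and the 3 samples highest in them, the C57BL/6 mutants, were also highest in both genes. The osteoclast sum had the same lowest sample and the same 3 highest samples. Among the BALB/c samples the orders differed. Wild type replicate 13 had the highest osteoblast sum there (210848 CPM) and the lowest Fgfr2 (269 CPM). These sums were compared after the members' values were seen, and their part in the receptor results was not tested.

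Fgfrl1 lay beside the cartilage sum in a similar way. The 4 libraries with the highest cartilage sums, C57BL/6 wild type replicates 1 (9189 CPM), 3 (7479 CPM) and 2 (7304 CPM) and BALB/c mutant replicate 17 (6520 CPM), had the 4 highest Fgfrl1 levels, 44.0, 41.2, 40.4 and 36.8 CPM, in the same order. The 2 libraries with the lowest sums, C57BL/6 mutant replicates 6 (1593 CPM) and 5 (1744 CPM), had the lowest Fgfrl1 levels, 24.6 and 28.2 CPM, and also the 2 lowest Fgfr4 levels. C57BL/6 mutant replicate 4, with 4265 CPM of cartilage markers, was the highest C57BL/6 mutant for Fgfr3, Fgfr4 and Fgfrl1. Fgfr3, itself a gene of growing cartilage, did not separate the C57BL/6 groups, while the cartilage sum was 7304 to 9189 CPM in wild type and 1593 to 4265 CPM in mutants. None of the 8 cartilage markers was at 0 throughout a group. These sums were set beside the members after their values were seen, and their part in the result was not tested.

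**Figure D4:**
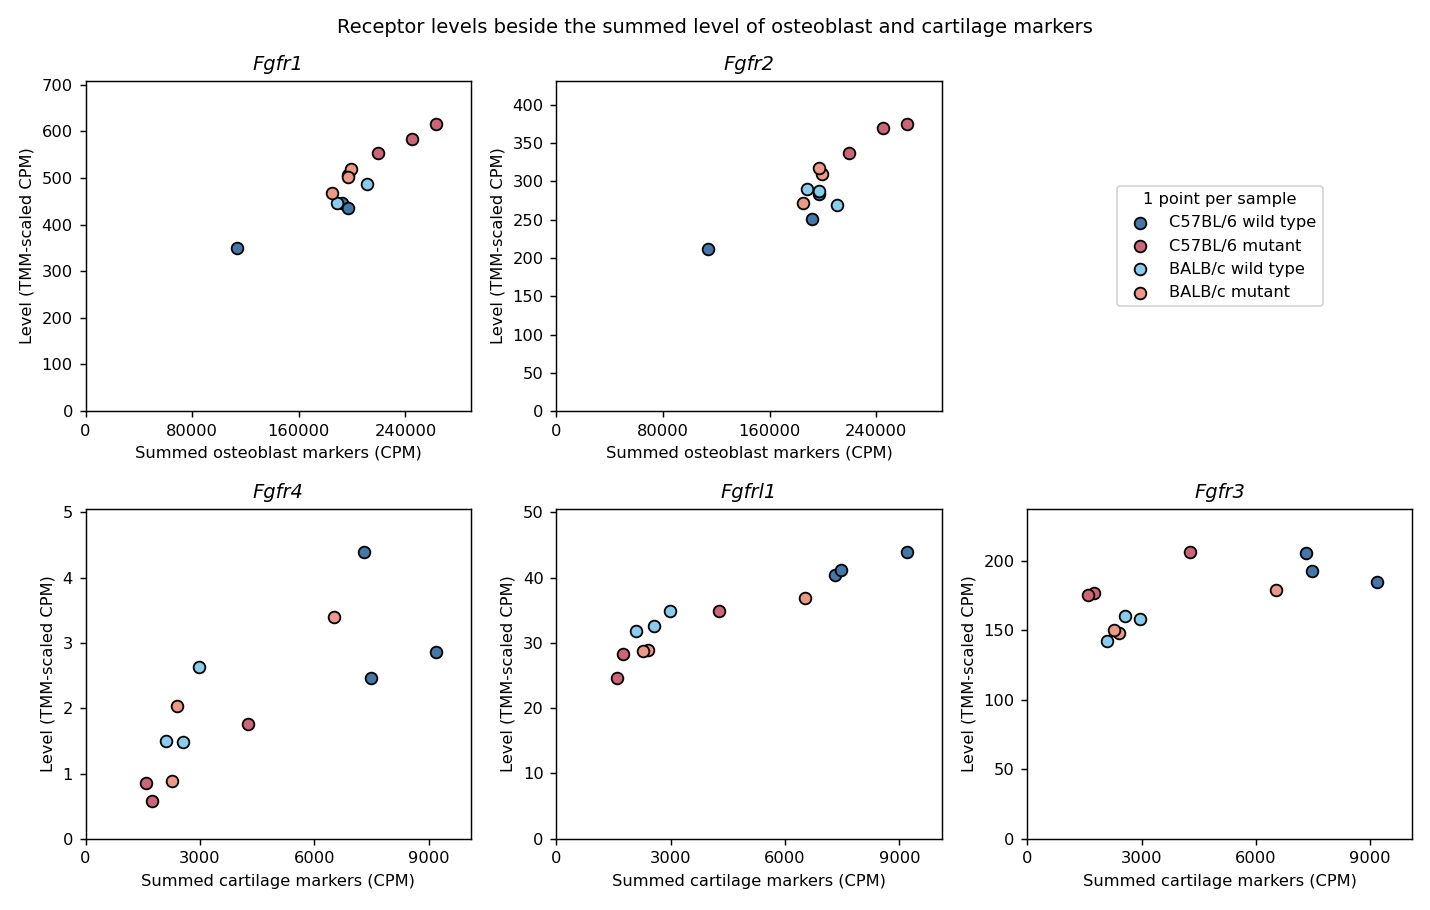
Level of Fgfr1 and Fgfr2 (upper panels, TMM-scaled CPM) against the summed level of 10 osteoblast markers, and of Fgfr4, Fgfrl1 and Fgfr3 (lower panels) against that of 8 cartilage markers (horizontal axes, CPM), 1 point per sample coloured by group. The C57BL/6 mutants are at the upper right for Fgfr1 and Fgfr2, and the 4 libraries richest in cartilage markers have the most Fgfrl1.

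Y-linked transcripts were unevenly spread as well. The sum of Ddx3y, Eif2s3y, Kdm5d and Uty was 152 to 161 CPM in the C57BL/6 wild type samples, whereas its median was 1.36 CPM in C57BL/6 mutants, with a range of 1.02 to 185 CPM. With that sum as a covariate, the C57BL/6 genotype effect was 0.48 for Fgfr1 (adjusted p = 0.0140), 0.52 for Fgfr2 (0.0139) and -0.59 for Fgfrl1 (0.0169), while Fgfr4 was at -1.47 (0.111).

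Genes with the most similar profile over the 12 samples were found by the root mean square (RMS) difference of centred log2 CPM, among genes with a mean of at least 10 CPM. The closest to Fgfr1 were Rasa4, a RAS GTPase-activating protein, at 0.0553, the lysosomal protease gene Ctsz at 0.0586 and Smox, spermine oxidase, at 0.0618, against a median of 0.249 over the other genes. The closest to Fgfr2 were Ctsz (0.0726), Ttc7 (0.0741) and the cathepsin gene Ctsb (0.0749), so Ctsz was among the 3 nearest to both. Fgfr1 and Fgfr2 differed from each other by 0.0758, the smallest value between members. Fgfr3 was closest to Scap (0.0868), Cnnm4 (0.0887) and Nup188 (0.0890). Fgfrl1 was closest to Col27a1, a fibrillar collagen gene of cartilage (0.0986), Cby1 (0.101) and Limk2 (0.104). Fgfr4 had no near match, with Tspan13 at 0.465, the cartilage proteoglycan gene Acan at 0.485 and Kcna6 at 0.494, against a median of 0.847. Its spread between replicates was also the widest, with a biological coefficient of variation of 43.1% against 8.87% to 11.1% for the other members.

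The other genes of the pathway are given from lists made by function. Of 18 FGF ligand genes, 12 were tested. In C57BL/6 mutants Fgf1, a ligand of all the kinase receptors, was higher (23.0 CPM in wild type and 31.6 CPM in mutants, log2 fold change 0.46, adjusted p = 0.0115), and 5 were lower. The latter were Fgf18, a ligand of osteoblasts and cartilage (2.48 and 1.48 CPM, adjusted p = 0.0480), Fgf9 (5.40 and 3.04 CPM, 0.00871), the epithelial-signalling ligand Fgf10 (4.21 and 2.22 CPM, 0.00912), Fgf16 (0.434 and 0.0793 CPM, 0.0105) and Fgf20 (1.09 and 0.0452 CPM, 0.0213). Fgf16 and Fgf20 were near the floor in the mutants, and the filter can keep a gene on its level in a single group. Both enter the count of lower genes and the list's median. The list's median log2 fold change was -0.78, against -0.00 for all genes, of which 23.9% were called. The summed level of the ligands was 49.3 to 52.4 CPM in C57BL/6 wild type and 49.4 to 55.9 CPM in the mutants, while epithelial and cartilage marker sums were lower in the mutants, and their part in the result was not tested. Fgf23, the hormone of phosphate balance made by osteocytes, had 4.59 and 2.12 CPM (adjusted p = 0.0778).

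Of 22 tested co-receptor and heparan sulfate genes, 8 rose and 3 fell in C57BL/6 mutants, with a median of 0.20, beside 23.9% of all genes called (1835 higher and 2032 lower of 16190). The largest rise was in Cdh2, N-cadherin, which binds FGFR1 (205 CPM in wild type and 328 CPM in mutants, log2 0.67, adjusted p = 0.000352). Gpc4, a glypican, rose by 0.54 (adjusted p = 0.000589) and Flrt2, a membrane partner of FGF receptors, by 0.50 (0.000798). Ext1 and Ext2, which build heparan sulfate chains, rose by 0.40 (0.00586) and 0.37 (0.00915). Gpc2 fell by 0.97 (0.00173) and Flrt1 fell by 2.19 (0.0128). Kl and Klb, the klotho co-receptors of the endocrine FGFs, stayed under 0.5 CPM in the mean of each group.

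Of 19 adaptor and RAS-ERK relay genes, 5 were higher and 0 lower with TMM scaling, but 0 were higher and 4 lower when libraries were scaled by total gene counts, under which the median of all genes was -0.20. The share called with TMM scaling is near the 23.9% of all genes, so it is no result about the relay. The 5 were Grb2 (log2 0.23), Shc1 (0.19), Gab1 (0.26), Plcg1 (0.21) and Sos2 (0.40). The list's median was 0.10. Mapk3 (0.20), an ERK kinase, and Frs2 (0.15), the docking protein of the receptors, were not called.

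Of 15 tested feedback inhibitors and ETS targets, genes that FGF-ERK signalling is known to induce, 5 were higher and 2 lower in C57BL/6 mutants with TMM scaling, and 1 higher and 2 lower with total counts, beside 23.9% of all genes called with TMM scaling. Etv5, an ETS factor, went from 43.6 to 59.2 CPM (log2 0.44, adjusted p = 0.00377), Spry1, a Sprouty inhibitor, from 54.5 to 70.8 CPM (0.38, 0.00926) and Dusp5, an ERK phosphatase, from 19.7 to 29.8 CPM (0.60, 0.0384). Il17rd, known as SEF, fell from 31.6 to 19.0 CPM (-0.73, 0.0321) and Spry2 from 28.0 to 24.1 CPM (-0.21, 0.0449). Dusp6 (0.15, adjusted p = 0.101), Spry4 (0.21, 0.339) and Etv4 (-0.36, 0.243) were not called.

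The regulators of receptor splicing are of interest because the mutated codon lies in the mesenchymal exon. Esrp1 and Esrp2, which favour the epithelial forms, averaged 19.5 and 5.01 CPM in C57BL/6 wild type, 2.67 and 0.911 CPM in C57BL/6 mutants and under 0.5 CPM in each BALB/c group. The difference in C57BL/6 was called by edgeR for Esrp2 (log2 -2.44, adjusted p = 0.0209) and not for Esrp1 (-2.85, 0.115), while limma-voom called 2 of the 4 regulators lower and 1 higher. Over all 16190 genes edgeR called 3867 and limma-voom 4705. Ptbp1 was higher by 0.21 (adjusted p = 0.0296), a call not made with total count scaling, and Rbfox2 was at 0.10 (0.210). The epithelial marker sums given above move with Esrp1 and Esrp2 across the groups. Their part in the result was not tested, and gene counts hold no isoform measurement.

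**Figure D5:**
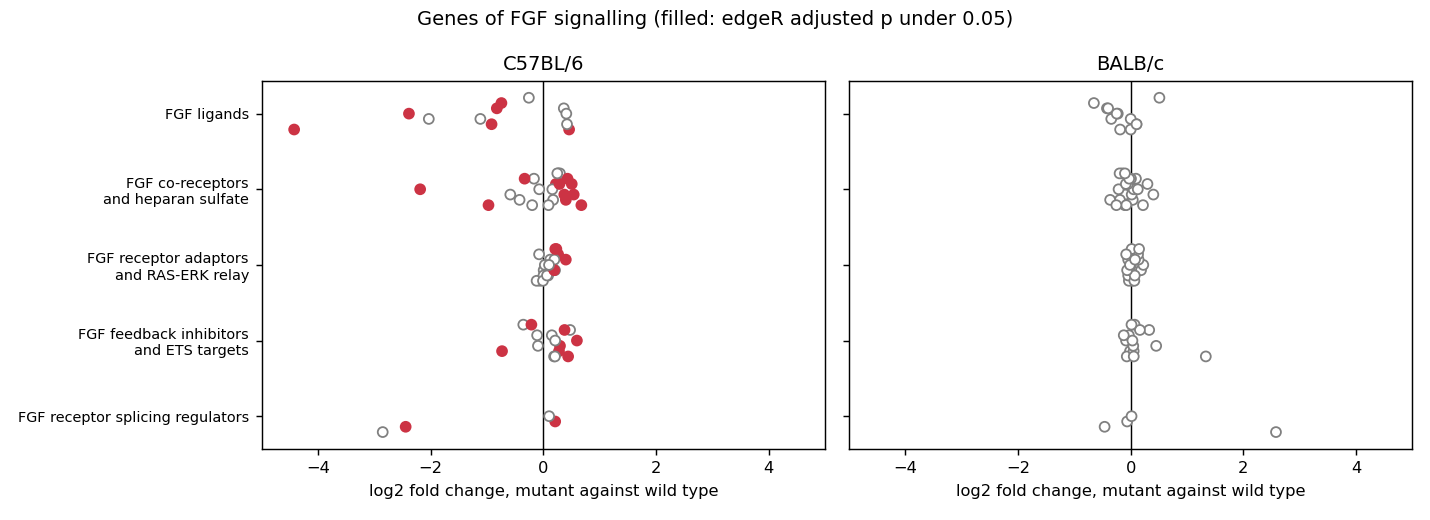
Log2 fold change of mutant against wild type (horizontal axes) for each tested gene of 5 FGF signalling lists (rows, points spread vertically for visibility), in C57BL/6 (left) and BALB/c (right), with filled points called at an edgeR adjusted p under 0.05. Calls appear in the C57BL/6 panel, 6 of 12 ligands among them, and no gene is called in the BALB/c panel. Of all genes, 23.9% were called in C57BL/6 and 0.136% in BALB/c.

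In BALB/c 0 genes of these 5 lists were called by edgeR or limma-voom, which called 22 and 44 of all 16190 genes there. At an unadjusted edgeR p under 0.05 there were 2 of 12 ligands, 2 of 22 co-receptor and heparan sulfate genes, 3 of 19 relay genes, 2 of 15 feedback genes and 0 of 4 splicing regulators. The share of all genes at that unadjusted p was not computed. DESeq2 called 1 gene of the co-receptor list and 1 of the feedback list, beside 323 of 13911 genes. Among 24 other receptor tyrosine kinases, set beside the members for comparison, 8 were higher and 3 lower in C57BL/6 mutants with TMM scaling, and 2 higher and 6 lower with total counts, beside 23.9% of all genes called with TMM scaling. In BALB/c edgeR called 0 of these 24 (7 at an unadjusted p under 0.05), limma-voom 0 and DESeq2 2, both lower. These stand beside the BALB/c counts over all genes given above. In C57BL/6 mutants Csf1r, the receptor of osteoclast precursors and macrophages, rose by 0.76 (203 CPM in wild type and 344 CPM in mutants, adjusted p = 0.000742) and Pdgfra, of mesenchymal cells, by 0.59 (171 and 257 CPM, 0.00126). Kit fell by 0.95 (adjusted p = 0.00185) and Ddr1 by 0.77 (0.00518).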

How the data were processed

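The authors deposited raw gene counts for 12 samples, with an RPKM value and a transcript length per gene, and a table of group comparisons (fold changes on the log2 scale, with p-values and their adjusted q-values). Per the submitters' processing notes the build is mm10 and the tools include bcl2fastq, TopHat2 2.0.6, HTSeq and DESeq2, with roles not stated. The strand setting is not given in the sources used here. The deposited RPKM values were not tested. Every deposited count was even. The length column, named as coding length in the file header, appears to include untranslated regions, since most lengths are no multiple of 3.

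Counts were analysed with edgeR 4.0.16 in R 4.3.3: filterByExpr (minimum count 10, minimum total 15), TMM scaling and 1 quasi-likelihood model over 12 samples and 4 groups. The 6 contrasts were tested with Benjamini-Hochberg adjustment over 16190 genes. Standard errors come from the F statistic, and log2 CPM used a prior count of 2. Ratios per kilobase were tested by exact permutation. Alternatives were DESeq2 1.42.0, limma-voom (limma 3.58.1), other scalings, no filter, a Y-linked covariate, only the groups compared and leaving out each sample. The scripts were tested on simulated counts.

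The 5 members are always named, with the 3 genes most like each among genes of at least 10 CPM, and genes of the lists past the threshold or known for their role. The members and lists were chosen with earlier results of these data known. The lists cover FGF ligands, co-receptors, relay, feedback genes, splicing regulators, other receptor tyrosine kinases and markers of osteoblasts, suture mesenchyme, cartilage, olfactory mucosa, epithelium, muscle, erythroid cells, endothelium, Schwann cells and osteoclasts. Replicate numbers are not shared between groups.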

Additional observations from a re-analysis of the deposited data

Results flagged for a closer look

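The genotype effect on Fgfr1 differed between the strains. The effect in BALB/c minus that in C57BL/6 was -0.46 on the log2 scale (SE 0.132), an interaction that passed edgeR's test at an adjusted p of 0.0473. In C57BL/6 each mutant was above each wild type sample, and in BALB/c the groups overlapped. The adjusted p ran from 0.00532 with DESeq2 to 0.0945 with total count scaling over the 6 alternatives other than leaving out a sample, and 4 of them lost the call (RLE size factors 0.0523, no filter 0.0664, the Y-linked covariate 0.0853 and total counts). With total count scaling the difference was -0.24, where the median of all genes was 0.24 (0.01 with TMM scaling), and the call was lost in 9 of the 12 fits that left out 1 sample.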

How the results depend on the processing

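The number of members called moved with some settings. With only the groups compared in the fit, 2 members were called for the C57BL/6 genotype effect (4 in the full fit) and 2 for the strain effect in mutants (0). Without a filter, 1 was called for the strain effect in wild type (2), and DESeq2 and limma-voom each called 3. Over all genes in that comparison the full fit called 7847 of 16190, DESeq2 7772 of 16105 and limma-voom 7815 of 16190. For the strain effect in mutants DESeq2 called 3 and limma-voom 1, beside 6344 of 16105 and 5896 of 16190 genes (5968 of 16190 in the full fit). For the interaction (1) DESeq2 called 2, while RLE size factors, total gene counts, no filter and the Y-linked covariate each called 0. Over all genes DESeq2 called 2707 of 15477 and RLE size factors 1579 of 16190, against 1626 of 16190 in the full fit. For the genotype effect averaged over strains (2) the Y-linked covariate left 1, and DESeq2 and limma-voom each called 3. For that average DESeq2 called 2203 of 15477 genes and limma-voom 1418 of 16190, against 1294 of 16190 in the full fit. Leaving out each replicate in turn gave 2 to 4 members for the C57BL/6 genotype effect, 1 to 2 for the strain effect in wild type, 0 to 3 for that in mutants, 0 to 4 for the interaction and 0 to 3 for the average. For the interaction, 4 were called without C57BL/6 mutant replicate 4, 2 without C57BL/6 wild type replicate 3, and 0 in 9 of the 12 fits. The cause of these moves was not tested, and fits of fewer samples gave more calls in some comparisons and fewer in others. Of 923 values compared, 0 called values changed sign, while some uncalled values near 0 did, such as Fgfr3 averaged over strains. In C57BL/6, limma-voom called 8 of 8 cartilage, 7 of 9 olfactory mucosa and 6 of 10 epithelial markers lower, and DESeq2 called 1 of 7 epithelial markers lower, against 5, 3 and 4 with edgeR. No paired analysis was possible because the groups share no replicate numbers. Depth limits Fgfr4 most, with 24 to 158 counts per sample.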
